A study of Glycine max with 12 samples.

Results

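Cytokinin and two-component signalling genes were followed in young soybean (Glycine max) leaves from weedy and weed-free field plots. A gene was taken as a member when the description deposited with it named cytokinin, a response regulator, a histidine phosphotransfer protein, a histidine kinase or an isopentenyltransferase, leaving out the pseudo-response regulators of the clock. The rule found 77 of 30459 genes. It used no measured value. Gene names are those of the closest Arabidopsis match in the deposited table, and several soybean copies often carry 1 name, so reads may have been divided between near-identical copies.

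The 12 RNA-seq libraries came from cultivar AG1631, grown near Brookings and sampled in late June of 2008 to 2011. Each library held newly emerged trifoliate leaves under 2 cm long, pooled from at least 8 plants of 1 plot. In 2008 and 2009 there was 1 control and 1 weedy plot. In 2010 and 2011 there were 2 of each, 1 drilled and 1 in rows, which were taken to be the 18 cm and 76 cm spacings of the labels; the plots of 2008 and 2009 carry the 76 cm spacing. The weeds of 2008 and 2009 were velvetleaf and buckwheat, with densities near 300 and 48 plants per square metre. The weed of 2010 was flax, near 600 per square metre, and those of 2011 were velvetleaf and common sunflower, near 160. Control plots were cleared with herbicide, which was S-metolachlor for 2008, sethoxydim for 2009 and glyphosate for 2010, and all of these with imazethapyr for 2011. The 2009 label dates the spraying to the day after sampling. If that date is right, the 2009 leaves were sampled before the spraying. In the other seasons, and in 2009 if it is wrong, weeds and herbicide differ together between plots and cannot be told apart. Season, weed species, weed density, herbicide, weather and sampling date likewise cannot be told apart.

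Cytokinins are adenine-derived hormones that promote cell division and delay the ageing of leaves. In Arabidopsis they bind histidine kinases in the membrane (AHK2, AHK3 and AHK4, the last also called WOL), which pass a phosphate to histidine phosphotransfer proteins (AHPs) and on to response regulators (ARRs) in the nucleus. Type-B regulators bind DNA and switch genes on, whereas type-A regulators lack that domain, are themselves switched on by cytokinin and dampen the response. The ethylene receptors belong to the same protein family, although most of their known output runs through another kinase.

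The members fell into 10 classes by role. The hormone's turnover was covered by 2 synthesis genes and 6 cytokinin oxidases. The relay was covered by 8 cytokinin receptors, 6 phosphotransfer genes, 12 type-B and 14 type-A regulators. There were 12 downstream transcription factors, 9 ethylene receptors and 2 other histidine kinases. A last class of 6 genes matched only through the phrase "histidine kinase-, DNA gyrase B-, and HSP90-like ATPase"; they share a protein fold with histidine kinases and are not known parts of the relay. All 77 passed the filter on low values (log2 of 1 or more in 3 or more libraries), and 15 had a value under 1 in some library.

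Levels are log2 FPKM, read fragments scaled to transcript length and library size, as the authors deposited them, and every difference below is a difference of such values. All 12 libraries hold the same set of values, from 0.00 to 13.50 with a median of 3.22, so a shift common to most genes would not show. Sequencing depth is unknown. The first principal component over all genes held 50.8% of the variance and set the libraries of 2008 (-97.8 and -110) apart from the others (-37.1 to 71.1). The summed level of 13 small Rubisco subunit and light-harvesting genes, markers of green leaf, was 14.05 to 15.07 (log2 of the sum) in control and 13.37 to 15.11 in weedy plots. That of 13 genes of cell division was 8.11 to 9.25 in control and 7.68 to 9.27 in weedy plots. Every gene of both lists had a mean of at least 1. Of 3 shoot meristem markers 1 was in the table, with values of 0.41 to 1.58, and the summed level of 12 cellulose synthase genes of vascular walls was 6.30 to 7.70. None of these marker genes passed the weedy against control test.

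Phosphotransfer genes stood highest on this scale and the degradation enzymes low. Averaged over 12 libraries, AHP1 Glyma13g28390 had the highest level of all members, 6.06, within a range of 5.72 to 6.59. The next in its class was AHP1 Glyma15g10660 at 5.10, and the class went down to 2.95 (AHP1 Glyma07g38310). Among type-A regulators ARR9 Glyma19g31320 led at 4.78 and ARR3 Glyma02g03140 was lowest at 1.62, with a class median of 2.54. Type-B regulators lay closer together, from 1.78 (ARR2 Glyma07g08590) to 3.34 (ARR1 Glyma17g03380). All 8 cytokinin receptors were expressed, from 2.85 (WOL Glyma02g09550) to 4.06 (AHK3 Glyma08g11060). The 6 cytokinin oxidases ran from 1.16 (CKX6 Glyma12g01390) to 2.37 (CKX3 Glyma17g06220). Of the synthesis genes, both of the type that modifies transfer RNA, IPT9 Glyma13g34680 had a mean of 3.27 and IPT2 Glyma11g19330 of 2.15. The lowest member of all was CRF4 Glyma03g41640 at 0.93.

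The study's main question was whether growth among weeds changes the leaf transcriptome. None of the 77 members passed an adjusted p of 0.05 for weedy minus control over all seasons (limma with season as a covariate, Benjamini-Hochberg adjustment over 30456 genes), and none of all genes did (0%). At an unadjusted p under 0.05 there were 12 members (15.6%), 3 higher and 9 lower in weedy plots, against 3293 of all genes (10.8%). The median difference was -0.03 over the members and -0.01 over all genes, and 42 members and 52.1% of all genes were below 0. The classes differed in their counts: type-A regulators were below 0 in 13 of 14 cases (median -0.19) and phosphotransfer genes above 0 in 6 of 6 (median 0.21). Cytokinin receptors were evenly divided, 4 above and 4 below (median 0.00), and 8 of 12 type-B regulators were above 0 (median 0.05).

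**Figure D1:**
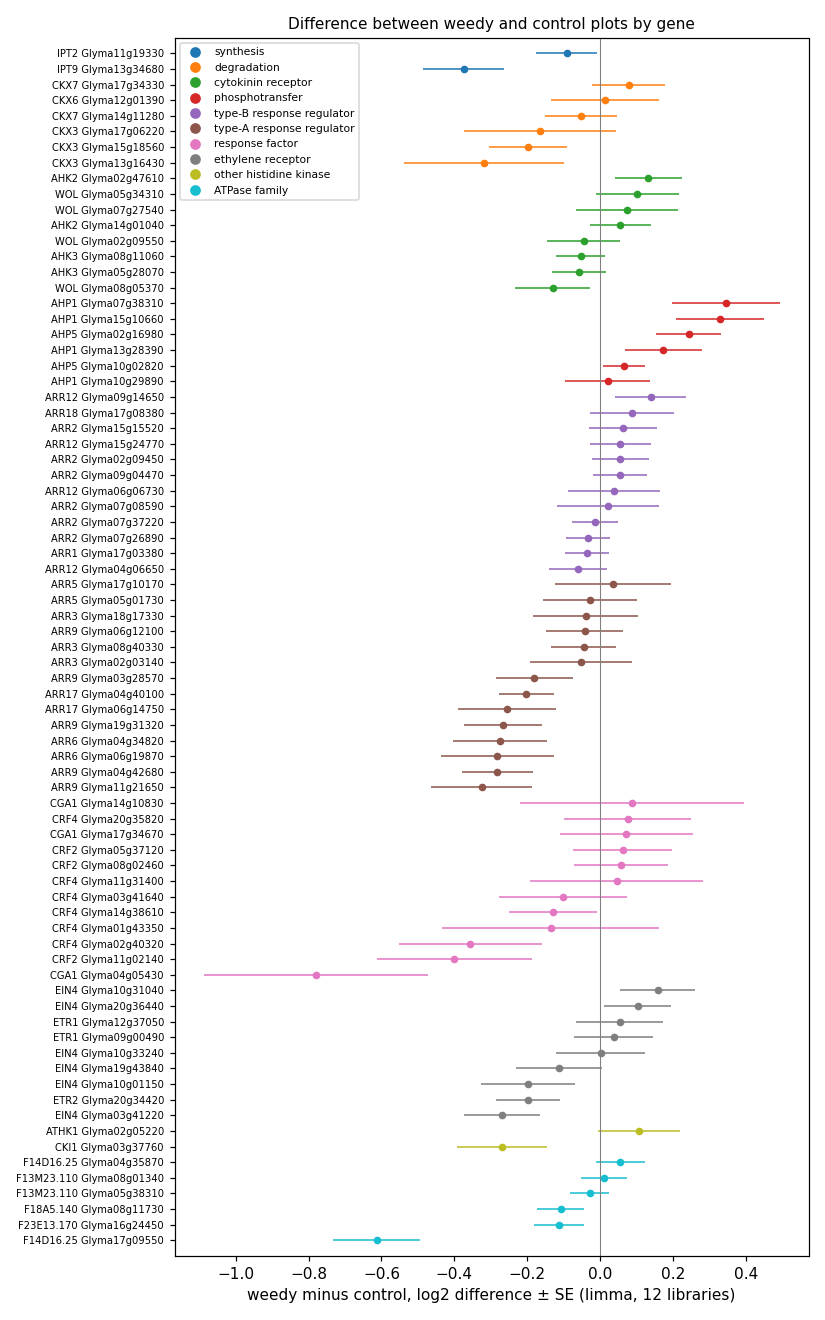
Weedy minus control for each of the 77 genes, as a log2 difference with its standard error (limma, 12 libraries), grouped and coloured by class. The type-A regulators lie below 0 except ARR5 Glyma17g10170 (0.04), and the 6 phosphotransfer genes lie above 0, but no gene passed the adjusted threshold.

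The type-A regulators are the negative arm of the pathway. ARR9 Glyma04g42680 ranged from 4.47 through a median of 4.76 to 4.79 in control plots, and from 4.19 through 4.31 to 4.79 in weedy plots. The weedy plot was lower in 5 of 6 pairs, although the 2008 pair and the drilled pair of 2011 were almost level, and the ranges overlapped. The difference was -0.28 ± 0.10 (SE, n = 6 libraries per group; limma, adjusted p = 0.345). ARR9 Glyma19g31320, the most abundant type-A gene, ranged from 4.73 through 4.86 to 5.25 in control and from 4.45 through 4.61 to 4.83 in weedy plots. Again 5 of 6 pairs were lower and only a small stretch of the ranges was shared (-0.27 ± 0.11, adjusted p = 0.406 by limma). ARR17 Glyma04g40100 ranged from 1.88 through 4.18 to 4.38 in control and from 1.63 through 3.88 to 4.20 in weedy plots. Its low end in both groups was the 2008 library, and the difference within seasons was -0.20 ± 0.08 (adjusted p = 0.375 by limma). ARR9 Glyma11g21650 was lower in 4 of 6 pairs (-0.33 ± 0.14, adjusted p = 0.432 by limma). The other 10 type-A genes ranged from -0.28 (ARR6 Glyma06g19870) to 0.04 (ARR5 Glyma17g10170).

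The one-sided count of the type-A class rested on more than 1 season but not evenly. By pair of plots, the class median was -0.02 in 2008, -0.19 in 2009, -0.09 (drilled) and -0.18 (rows) in 2010, and -0.38 and -0.31 in 2011. Every pair had a median below 0, and those of 2011 lay farthest from it. Per its label, the drilled weedy plot of 2011 had a corrupt second read file. Without the 2011 libraries 10 of 14 were below 0, and leaving out any single library left 11 to 14 of 14. In 2010 and 2011 together 7 of the 14 were lower in weedy plots in all 4 pairs, and none was higher in all 4.

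**Figure D2:**
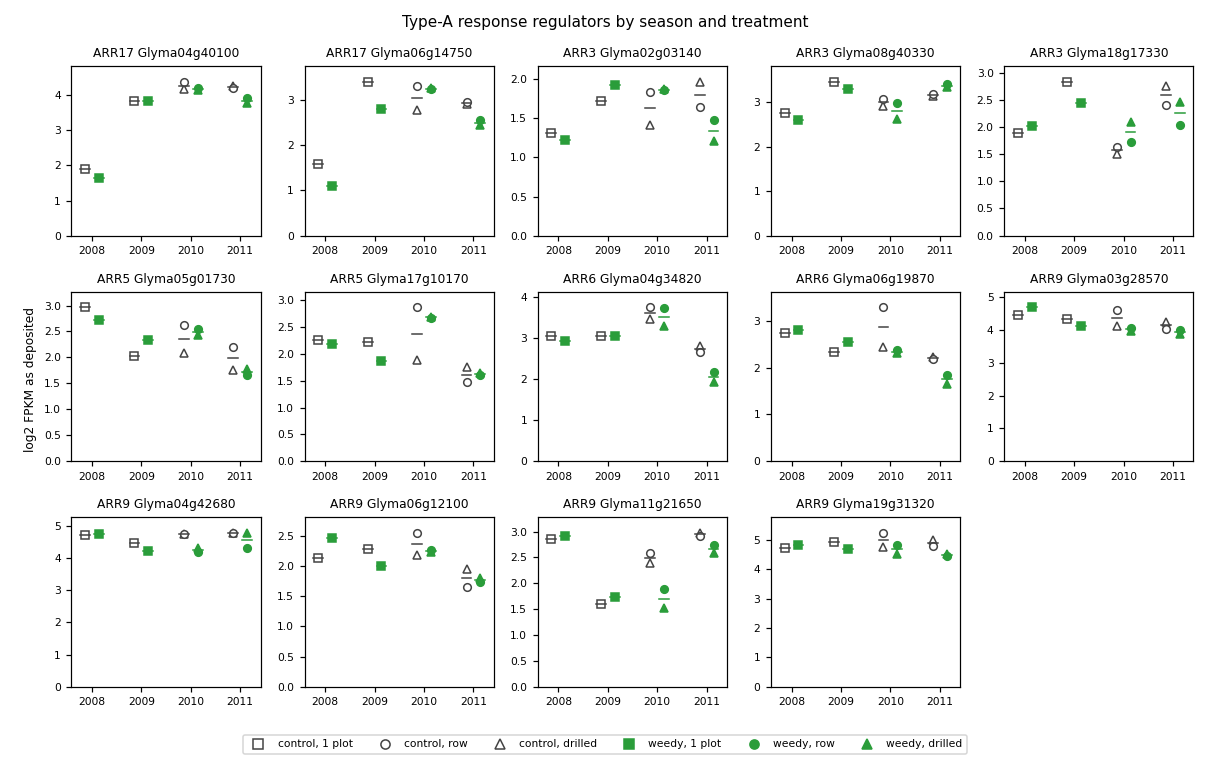
Level of each of the 14 type-A response regulators (log2 FPKM as deposited, axis from 0) by season, with 1 symbol per library, grey for control and green for weedy plots, and a line for the group mean. Gaps between seasons are widest for the ARR17 genes, at 1.11 to 1.88 in 2008, and in ARR9 Glyma11g21650 both weedy plots of 2010 (1.51 and 1.89) lie under both control plots.

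Phosphotransfer proteins, which carry the phosphate from receptor to regulator, were the class with every member above 0. AHP5 Glyma02g16980 ranged from 3.16 through 3.27 to 3.79 in control and from 3.31 through 3.59 to 3.80 in weedy plots. It was the only member higher in the weedy plot of all 6 pairs (1.30% of members, against 2.88% of all genes). The 2008 pair (3.79 and 3.80) was nearly level and the ranges overlapped. The difference was 0.24 ± 0.09 (adjusted p = 0.366 by limma). AHP1 Glyma15g10660 ranged from 4.48 through 4.88 to 5.59 in control and from 4.72 through 5.23 to 5.78 in weedy plots, with 5 of 6 pairs higher (0.33 ± 0.12, adjusted p = 0.363 by limma). AHP1 Glyma07g38310 ranged from 2.51 through 2.86 to 2.94 in control and from 2.62 through 3.01 to 3.80 in weedy plots. Its weedy plot of 2009 (3.61) and drilled weedy plot of 2010 (3.80) stood above every other library, and the remaining 4 weedy plots lay within 0.2 of their control plots (0.35 ± 0.15, adjusted p = 0.436 by limma). The abundant AHP1 Glyma13g28390 gave 0.17 ± 0.11 (adjusted p = 0.593 by limma). The count above 0 was 5 or 6 of 6 with any 1 library or season left out. The class median by pair was 0.16 in 2008, 0.46 in 2009, 0.19 (drilled) and -0.02 (rows) in 2010, and 0.16 and 0.13 in 2011.

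No synthesis or degradation gene passed the test either. IPT9 Glyma13g34680 ranged from 3.08 through 3.41 to 3.95 in control and from 2.58 through 3.03 to 3.69 in weedy plots. The weedy plot was the lower one in all 6 pairs, by 0.07 to 0.78, while the ranges of the 2 groups overlapped. The difference was -0.38 ± 0.11, the second smallest p among members (adjusted p = 0.264 by limma). IPT2 Glyma11g19330 gave -0.09 ± 0.08. Cytokinin oxidases break the hormone down. CKX3 Glyma15g18560 ranged from 1.12 through 1.45 to 1.95 in control and from 1.02 through 1.17 to 2.04 in weedy plots (-0.20 ± 0.11, adjusted p = 0.531 by limma), with both high ends in 2008. CKX3 Glyma13g16430 (-0.32 ± 0.22) and CKX3 Glyma17g06220 (-0.17 ± 0.21) had 3 pairs higher and 3 lower. All 4 CKX3 and CKX7 values below 0 came with standard errors from 0.10 to 0.22, and no oxidase had an unadjusted p under 0.05.

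Receptors and type-B regulators, the core of the relay, had pooled differences near 0. Differences of the 8 cytokinin receptors lay between -0.13 (WOL Glyma08g05370, SE 0.10) and 0.13 (AHK2 Glyma02g47610, SE 0.09). The receptor of highest level, AHK3 Glyma08g11060, ranged from 3.80 through 4.07 to 4.33 in control and from 3.64 through 4.05 to 4.37 in weedy plots, nearly the same span (-0.05 ± 0.07, adjusted p = 0.817 by limma). The 12 type-B regulators lay between -0.06 (ARR12 Glyma04g06650, SE 0.08) and 0.14 (ARR12 Glyma09g14650, SE 0.10). ARR1 Glyma17g03380, the most abundant of them, ranged from 3.20 through 3.36 to 3.49 in control and from 3.12 through 3.35 to 3.50 in weedy plots (-0.04 ± 0.06). No receptor and no type-B regulator had an unadjusted p under 0.05 over all seasons, which does not show that their levels were equal. By season, 6 of 8 receptors were above 0 in 2010 (median 0.20) and 6 of 8 below 0 in 2011 (median -0.17). Of the type-B regulators 7 of 12 were above 0 in 2010 (median 0.08) and 8 of 12 below 0 in 2011 (median -0.12). Without the 2011 libraries 11 of 12 were above 0. Over all 77 members 49.4% were above 0 in 2010, against 52.3% of all genes. In 2011 66.2% of the members were below 0, against 53.25% of all genes. Both shares include these 2 classes. Of the 6 degradation genes 4 were above 0 in 2010 and 4 below 0 in 2011. Type-A regulators made no such turn, with 9 of 14 below 0 in 2010 and 12 of 14 in 2011. WOL Glyma05g34310 gave 0.29 ± 0.12 in 2010 and -0.33 ± 0.12 in 2011 (adjusted p = 0.575 and 0.346 by limma).

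Among downstream factors, the GATA factor CGA1 (also called GNL, which promotes chloroplast development in Arabidopsis) had the largest difference. CGA1 Glyma04g05430 ranged from 1.19 through 2.56 to 3.40 in control and from 0.67 through 1.70 to 2.99 in weedy plots. It was lower in weedy plots of 2008, of 2011 and of the drilled pair of 2010, and higher in the other 2 pairs (-0.78 ± 0.31, adjusted p = 0.400 by limma). Its soybean copies Glyma14g10830 (0.09 ± 0.31) and Glyma17g34670 (0.07 ± 0.18) did not share that difference. CRF2 Glyma11g02140, one of the cytokinin response factors, which are AP2-type transcription factors, ranged from 3.34 through 3.66 to 4.03 in control and from 2.74 through 3.19 to 4.05 in weedy plots (-0.40 ± 0.21, adjusted p = 0.531 by limma). The other 8 factors lay between -0.36 (CRF4 Glyma02g40320) and 0.08 (CRF4 Glyma20g35820).

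Ethylene receptors, which repress ethylene responses until the gas binds them, were divided, 5 above and 4 below 0 (median 0.00). ETR2 Glyma20g34420 ranged from 1.39 through 2.64 to 3.15 in control and from 1.34 through 2.38 to 2.88 in weedy plots, and was lower in all 6 pairs, by at most 0.32 (-0.20 ± 0.09, adjusted p = 0.453 by limma). EIN4 Glyma03g41220 was lower in 5 of 6 pairs (-0.27 ± 0.11, adjusted p = 0.394 by limma), whereas ETR1 Glyma12g37050 gave 0.05 ± 0.12. CKI1 Glyma03g37760, a histidine kinase known from female gametophyte development in Arabidopsis, was lower in 5 of 6 pairs (-0.27 ± 0.12, adjusted p = 0.468 by limma). ATHK1 Glyma02g05220, an osmosensing histidine kinase in Arabidopsis, gave 0.11 ± 0.11.

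The smallest p of all members belonged to the ATPase family. F14D16.25 Glyma17g09550 ranged from 1.52 through 1.83 to 2.33 in control and from 0.74 through 1.34 to 1.63 in weedy plots. The weedy plot was lower in all 6 pairs, by 0.34 to 1.07, and the ranges overlapped only through the control plot of 2008; the difference was -0.61 ± 0.12 (adjusted p = 0.109 by limma). The second gene of that name, Glyma04g35870, gave 0.06 ± 0.07, and F18A5.140 Glyma08g11730 gave -0.11 ± 0.06 with all 6 pairs lower.

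Since weeds and weather changed each year, the 2 seasons with 2 plots per treatment were also compared within themselves. In 2010, among flax, 0 of 77 members passed, as did 0% of all genes; 10 members and 2632 genes had an unadjusted p under 0.05 (limma). In 2011, among velvetleaf and sunflower, 0 of 77 members and 0% of all genes passed. There 13 members (16.9%) and 3655 genes (12%) were under 0.05. All values for 2011 include the drilled weedy plot, whose second read file was corrupt per its label. The weed effect of 2011 minus that of 2010 was past the threshold for 0 members and 0% of genes, with 10 members and 4181 genes under 0.05. For 2010 the count of 0 depended on 1 library, the weedy plot in rows. The fit without it leaves 1 weedy plot in 2010, whose spread is assumed to be that of the other groups. There ARR9 Glyma11g21650 gave -0.98, against -0.79 with all libraries.

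The 2 cytokinin oxidases CKX3 Glyma13g16430 and Glyma17g06220 had opposite signs in these seasons. For CKX3 Glyma13g16430 the control plots of 2010 stood at 2.11 (drilled) and 2.73 (rows) and the weedy plots at 2.59 and 2.74, while in 2011 the control plots stood at 1.94 and 1.80 and the weedy plots at 0.63 and 0.85. In 2011 both weedy plots lay more than 0.9 below both control plots, and in 2010 the groups overlapped. The differences were 0.25 ± 0.22 in 2010 and -1.13 ± 0.22 in 2011 (adjusted p = 0.718 and 0.193), and they differed by -1.38 ± 0.31 (adjusted p = 0.279 by limma). CKX3 Glyma17g06220 stood at 3.28 and 3.35 in control against 3.59 and 3.91 in weedy plots of 2010, and at 2.44 and 2.06 against 1.51 and 1.38 in 2011. Weedy plots were above both control plots in 2010 and below both in 2011 (0.43 ± 0.17 and -0.81 ± 0.17; difference -1.24 ± 0.24, adjusted p = 0.279 by limma).

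CGA1 Glyma14g10830 ran the other way. It stood at 2.65 (drilled) and 2.10 (rows) in control against 1.08 and 1.75 in weedy plots of 2010, and at 2.51 and 3.10 against 4.05 and 3.37 in 2011. The groups did not overlap in either season (-0.97 ± 0.34 and 0.91 ± 0.34; difference 1.87 ± 0.49, adjusted p = 0.285 by limma). The summed level of the green leaf markers went the same way: it was 14.25 and 14.05 in control against 13.37 and 13.64 in weedy plots of 2010, and 14.21 and 14.48 against 15.02 and 14.82 in 2011. The part of these leaf genes in the CGA1 result was not tested.

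ARR9 Glyma11g21650 stood at 2.40 and 2.58 in control against 1.51 and 1.89 in weedy plots of 2010, and at 2.98 and 2.91 against 2.59 and 2.75 in 2011. Weedy plots were below both control plots in each season (-0.79 ± 0.16, adjusted p = 0.522, and -0.27 ± 0.16 by limma), and the 2010 difference had the smallest p of the members in that season. F14D16.25 Glyma17g09550 gave -0.79 ± 0.20 and -0.43 ± 0.20. CRF4 Glyma03g41640 gave 0.48 ± 0.17 in 2010 and -0.22 ± 0.17 in 2011 (difference -0.69 ± 0.23, adjusted p = 0.308 by limma). AHK2 Glyma02g47610 gave 0.36 ± 0.14 in 2010 and -0.06 ± 0.14 in 2011. AHP1 Glyma15g10660 stood at 4.82 and 4.76 in control against 4.87 and 4.72 in weedy plots of 2010, and at 5.01 and 4.94 against 5.73 and 5.25 in 2011. Its groups overlapped in 2010 and were apart in 2011 (0.01 ± 0.17 and 0.52 ± 0.17, adjusted p = 0.292 for the latter by limma).

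Counting pairs of plots, 14 of 77 members (18.2%) were lower in weedy plots in all 4 pairs of 2010 and 2011, against 6.03% of all genes, and 1 (1.30%) was higher in all 4, against 5.88%. Higher in both pairs of 2010 and lower in both of 2011 were 12 members (15.6%, against 11.2% of all genes), and 2 members (2.60%, against 9.33%) had the reverse pattern. Of the 14 members that were lower throughout, 7 were type-A regulators, 2 were ethylene receptors and 2 were of the ATPase family. Over all 6 pairs, 1 member (1.30%, against 2.88% of all genes) was higher in every weedy plot. Lower in every weedy plot were 4 members (5.20%, against 2.80%). These shares are descriptions without a test, and the pairs match plots only by season and row spacing.

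**Figure D3:**
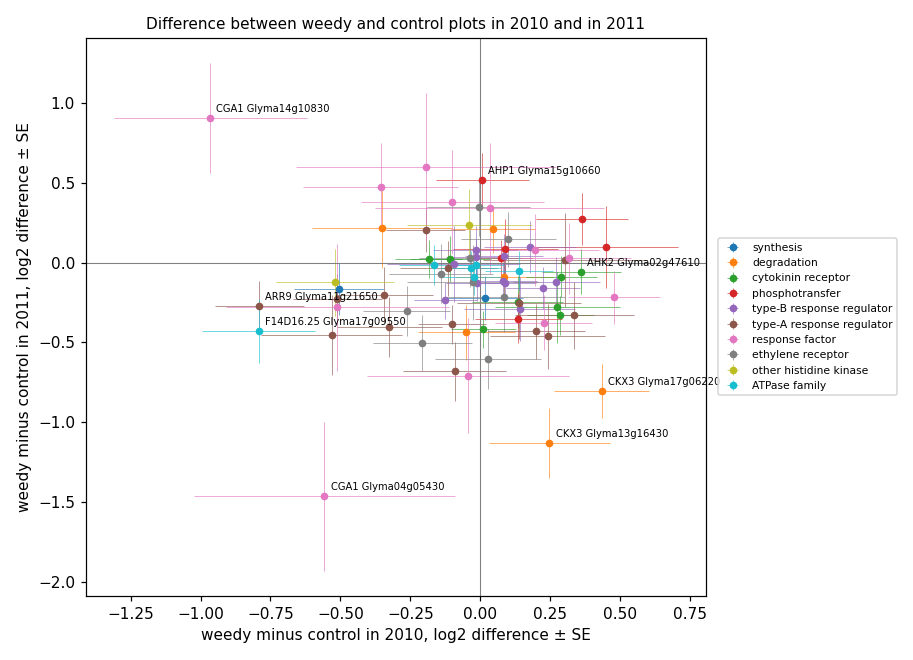
Weedy minus control in 2011 against that in 2010, as log2 differences with standard errors (limma, 8 libraries), 1 point per gene, coloured by class. Both labelled CKX3 genes lie at the lower right and CGA1 Glyma14g10830 at the upper left, where the sign differs between seasons, and most points lie within 0.5 of 0 on both axes.

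In the authors' deposited table, Cuffdiff q-values compare weedy with control plots in 2010 and in 2011. There a q-value under 0.05 was listed for 1 of 77 members in 2010 (1.30%, against 2.46% of all genes), AHP1 Glyma07g38310 at 0.000933. For 2011 the authors' deposited table has 6 members under 0.05 (7.79%, against 7.67% of all genes): CKX3 Glyma13g16430 (1.9e-06), AHP1 Glyma15g10660 (9.77e-06), CKX3 Glyma17g06220 (0.000247), CGA1 Glyma14g10830 (0.000347), CGA1 Glyma04g05430 (0.0390) and ARR6 Glyma04g34820 (0.0478). Both shares lay near or below those of all genes.

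Many members differed between seasons, whereas none passed for weedy minus control. The latter difference is an average over seasons in which some members had opposite signs. These counts therefore do not rank the effects of season and weeds. In an F test over the 4 seasons (limma, weeds as a covariate), 47 of 77 members passed (61.0%) against 67.1% of all genes, so the members' share was no higher than that of other genes. By class 10 of 14 type-A, 5 of 12 type-B, 5 of 8 receptor, 2 of 6 phosphotransfer, 5 of 6 degradation and 5 of 12 factor genes passed. The widest ranges of season means were those of CGA1 Glyma14g10830 (2.82), ARR17 Glyma04g40100 (2.46), ATHK1 Glyma02g05220 (2.39), CKX3 Glyma17g06220 (2.31), CGA1 Glyma17g34670 (2.09) and CKX3 Glyma13g16430 (1.90).

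**Figure D4:**
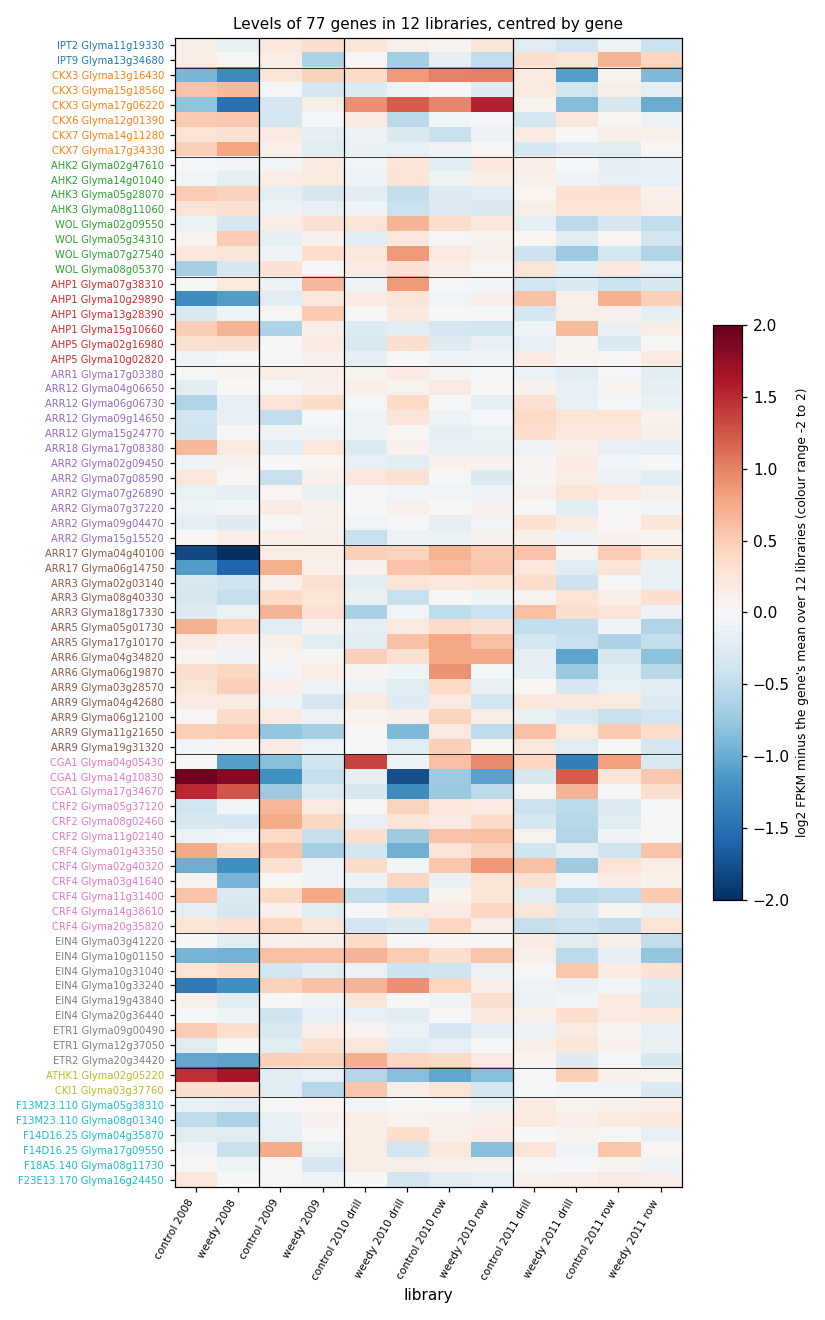
Level of each of the 77 genes in each of the 12 libraries, as log2 FPKM minus the gene's mean over the libraries (colour from -2 to 2, red above and blue below the mean), with genes grouped by class and libraries by season. The 2 libraries of 2008 stand out in both ARR17 genes, in 2 of 3 CGA1 genes and in ATHK1. Those of 2010 and 2011 differ in 2 of 3 CKX3 genes.

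The 2 libraries of 2008 differed from the 10 later ones in 34 of 77 members (44.2%), 17 higher and 17 lower, whereas 51.9% of all genes passed (24.6% higher and 27.3% lower; limma, adjusted over 30456 genes). This count rests on 2 libraries. A fit without 1 of them leaves 1 plot of 2008, which is assumed to vary like the other groups. Fewer members passed in such a fit, and fewer of all genes too. ARR17 Glyma04g40100, a type-A regulator, stood at 1.88 (control) and 1.63 (weedy) in 2008, and the later libraries ran from 3.76 through a median of 4.14 to 4.38. Both 2008 values lay well under every later one, a 4.82-fold lower level on the deposited scale (-2.27 ± 0.10, adjusted p = 9.78e-07 by limma). The other copy, ARR17 Glyma06g14750, stood at 1.57 and 1.11 against 2.45 through 2.93 to 3.40, again below all later libraries (-1.65 ± 0.18, adjusted p = 6.59e-05 by limma). The remaining type-A genes did not follow: 3 rose in 2008 (ARR5 Glyma05g01730, ARR9 Glyma03g28570 and ARR9 Glyma11g21650, by 0.42 to 0.70), 1 fell (ARR3 Glyma08g40330, by 0.50) and 8 did not pass.

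Of the other genes lower in 2008, the largest falls were in an ethylene receptor and a phosphotransfer gene. EIN4 Glyma10g33240 stood at 1.37 and 1.56 in 2008 against 2.53 through 3.07 to 3.70 later (-1.63 ± 0.17, adjusted p = 4.11e-05 by limma). AHP1 Glyma10g29890 stood at 2.73 and 2.85 against 3.76 through 4.16 to 4.67 (-1.38 ± 0.16, adjusted p = 8.17e-05 by limma). Both lay below all 10 later libraries, as did ETR2 Glyma20g34420 and EIN4 Glyma10g01150. AHP1 Glyma15g10660 was higher in 2008 (0.73 ± 0.16), so copies of 1 phosphotransfer gene went in opposite directions.

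The largest rises in 2008 were in CGA1 and ATHK1. CGA1 Glyma14g10830 stood at 4.78 (control) and 4.65 (weedy) in 2008, and later libraries ran from 1.08 through 2.44 to 4.05. Both 2008 values were above all later ones, a 5.03-fold higher level (2.33 ± 0.41, adjusted p = 0.00105 by limma). CGA1 Glyma17g34670 stood at 3.06 and 2.80 against 0.29 through 1.25 to 2.22 (1.70 ± 0.25), whereas CGA1 Glyma04g05430 did not pass (-0.55 ± 0.42, adjusted p = 0.291 by limma). ATHK1 Glyma02g05220 stood at 2.71 and 2.90 against 0.22 through 1.05 to 1.72, a 3.61-fold higher level (1.85 ± 0.15, adjusted p = 1.35e-05 by limma). CKX7 Glyma17g34330, a cytosolic cytokinin oxidase in Arabidopsis, stood at 2.71 and 3.03 against 1.88 through 2.08 to 2.35 (0.75 ± 0.14, adjusted p = 0.00112 by limma). Among degradation genes 3 rose and 2 fell in 2008, and both falls were the CKX3 genes Glyma13g16430 and Glyma17g06220.

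The 2008 leaves also differed in the marker lists. Of 13 cell division genes 12 were lower in 2008 and 0 higher (median -1.11), and their summed level was 7.68 to 8.11 against 8.81 to 9.27 in later seasons. Of 13 green leaf genes 6 were higher and 0 lower, with a summed level of 15.07 and 15.11 against 13.37 to 15.02 later. Of 12 vascular wall genes 4 were higher and 6 lower. In bulk leaf tissue fewer cells of a type and less RNA per cell cannot be told apart, and the part of these shifts in the season differences of the members was not tested.

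Between the 4 libraries of 2011 and the 4 of 2010, which also enter the comparison with 2008, 34 of 77 members passed (44.2%; 41.2% of all genes), 17 higher (20.5% of all genes were) and 17 lower (20.7%) in 2011. CKX3 Glyma17g06220 fell most: the 4 values of 2010 were 3.28, 3.59, 3.35 and 3.91, and those of 2011 were 2.44, 1.51, 2.06 and 1.38. The seasons did not overlap, and the level was 3.22-fold lower in 2011 (-1.69 ± 0.25, adjusted p = 0.000921 by limma). CKX3 Glyma13g16430 ran from 2.11 to 2.74 in 2010 and from 0.63 to 1.94 in 2011 (-1.23 ± 0.27, adjusted p = 0.00528 by limma), where the weedy plots were the lowest. The third CKX3 copy, Glyma15g18560, did not pass (0.10 ± 0.13).

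Type-A regulators divided by name in this comparison, with 5 lower, 3 higher and 6 not passing. ARR6 Glyma04g34820 stood at 3.46, 3.29, 3.75 and 3.74 in 2010 and at 2.80, 1.93, 2.67 and 2.17 in 2011 (-1.17 ± 0.16, adjusted p = 0.000549 by limma). The seasons did not overlap. ARR5 Glyma17g10170 stood at 1.89, 2.69, 2.87 and 2.68 in 2010 and at 1.75, 1.65, 1.48 and 1.62 in 2011 (-0.91 ± 0.20, adjusted p = 0.00498 by limma). Both ARR5 and both ARR6 genes fell, whereas 2 of 3 ARR3 genes and 1 of 5 ARR9 genes, Glyma11g21650 (0.72 ± 0.17), rose and another ARR9 gene fell. The cytokinin receptors divided by name too: both AHK3 genes rose (0.47 and 0.48) and 2 of 4 WOL genes fell (-0.87 and -0.76), while neither AHK2 gene passed.

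CGA1 Glyma14g10830 rose most in 2011, from 2.65, 1.08, 2.10 and 1.75 in 2010 to 2.51, 4.05, 3.10 and 3.37. The seasons overlapped only between the drilled control plots (1.36 ± 0.37, adjusted p = 0.0158 by limma). ATHK1 Glyma02g05220 stood at 0.66, 0.40, 0.22 and 0.39 in 2010 and at 1.22, 1.72, 1.35 and 1.32 in 2011 (0.99 ± 0.14, adjusted p = 0.000623 by limma). CGA1 Glyma17g34670 rose by 0.97 ± 0.22 and IPT9 Glyma13g34680 by 0.75 ± 0.13 (adjusted p = 0.0021 by limma), while the other synthesis gene, IPT2, fell (-0.44 ± 0.10). In the same comparison 7 of 13 green leaf markers rose and 6 of 13 cell division markers fell, with 0 in the opposite directions, and 6 of 12 vascular wall genes rose and 1 fell; their part in these differences was not tested.

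**Figure D5:**
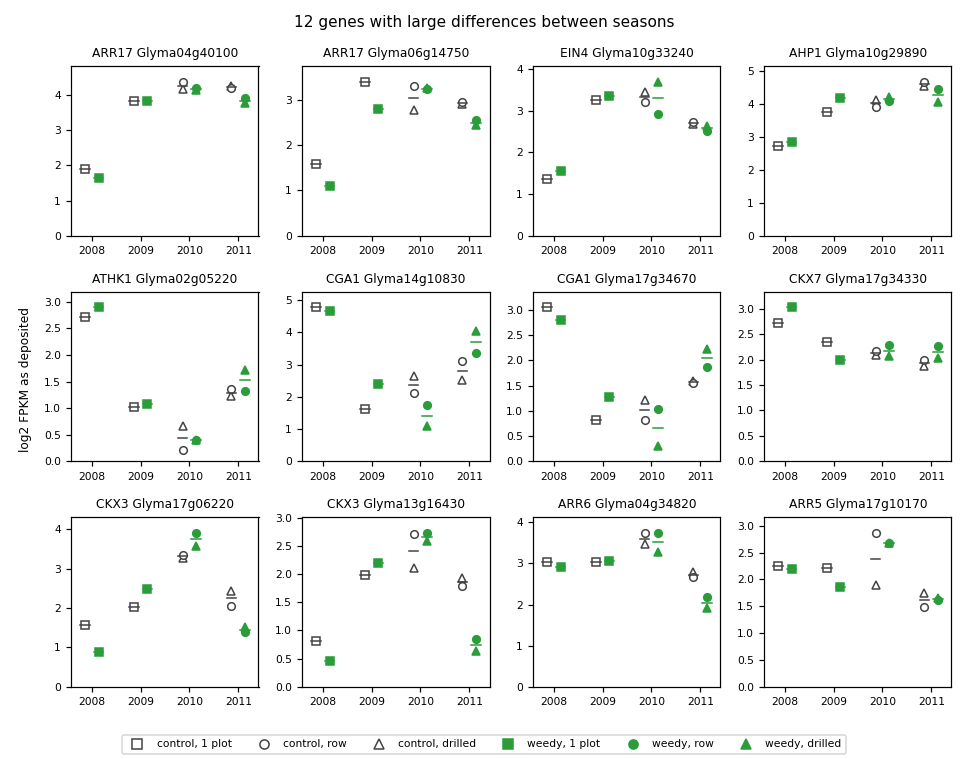
Level of 12 genes with large differences between seasons (log2 FPKM as deposited, axis from 0) by season, with 1 symbol per library, grey for control and green for weedy plots, and a line for the group mean. ARR17, EIN4 and AHP1 are low in 2008, ATHK1, CGA1 and CKX7 are high in 2008, and CKX3, ARR6 and ARR5 are lower in 2011 than in 2010.

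The season of 2009, with 1 plot per treatment, was closer to the mean of 2010 and 2011. None of the 77 members passed (2.47% of all genes did), and 14 members (18.2%) and 6101 genes (20.0%) had an unadjusted p under 0.05 (limma). ARR9 Glyma11g21650 came nearest, at 1.60 and 1.73 in 2009 against season means of 2.09 and 2.81 (-0.79 ± 0.19, adjusted p = 0.0583 by limma). Without the drilled weedy plot of 2010 it passed (-0.87, adjusted p = 0.0142 by limma). In that fit 2010 of all genes passed, against 751 with all libraries. CRF2 Glyma08g02460 (0.65 ± 0.18, adjusted p = 0.0838 by limma) and IPT2 Glyma11g19330 (0.34 ± 0.11) were nearest among higher genes, and ARR12 Glyma09g14650 gave -0.38 ± 0.13.

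Row spacing was compared in the 8 libraries of 2010 and 2011. No member passed and 0% of all genes did, with 4 members (5.20%) and 2404 genes (7.89%) at an unadjusted p under 0.05 (limma). Of these 4 members 3 were CRF4 genes lower in drilled plots, among them Glyma01g43350 (-0.70 ± 0.21, from a mean of 2.35 in rows to 1.66 drilled, adjusted p = 0.523 by limma) and Glyma20g35820 (-0.48 ± 0.16). ARR2 Glyma07g08590 gave 0.35 ± 0.11, and CKI1 Glyma03g37760, next on the higher side, gave 0.26.

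The table also held 35 genes of the pathway that the rule did not take because their descriptions use other words; they are named here by their Arabidopsis match. None passed the weedy against control test, and 7 (20%, against 10.8% of all genes) had an unadjusted p under 0.05 (limma). Of 14 LOG genes, which release active cytokinin from its nucleotide, 12 were above 0 over all seasons (median 0.18). In that fit LOG1 Glyma12g29810 gave 0.82 ± 0.18 (adjusted p = 0.144 by limma). LOG3 Glyma03g33840 gave 0.39 ± 0.09 (adjusted p = 0.139 by limma). Within 2010 and within 2011 the weedy minus control count of LOG genes was less one-sided. In 2010 7 of 14 were above 0 (median 0.035), and in 2011 9 of 14 were (median 0.07). In 2008 25 of the 35 differed from later seasons (71.4%, against 51.9% of all genes), 17 higher and 8 lower. Between 2011 and 2010 19 differed (54.3%, against 41.2%), 8 higher and 11 lower. All 4 KMD1 genes, F-box proteins that mark type-B regulators for destruction in Arabidopsis, were higher in 2008 (1.03 to 1.70), and 3 of 4 were lower in 2011 than in 2010. All 4 genes of GNC, the paralogue of CGA1, were higher in 2008 too (0.70 to 1.47).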

How the data were processed

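Per the file headers, the authors deposited 1 table of log2 FPKM values per gene and library with Phytozome 9.0 annotation, p-values and q-values from Cuffdiff, and log2 ratios. Per the submitters' processing notes, TopHat, Cufflinks and Cuffdiff were used, each as version 1.0. Genome build, counts, depth, the scaling step and any number added before the log are not given in the sources used here. Per the labels, the second read file of the drilled weedy plot of 2011 was corrupt.

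Of 30498 entries, 39 sharing 19 identifiers were left out, and 30456 of 30459 genes passed the filter. Deposited log2 values were tested as they stand with limma 3.58.1 under R 4.3.3 (trend and robust options of eBayes, two-sided, Benjamini-Hochberg adjustment over all genes, threshold 0.05), which was tested on simulated data. P-values rest on the spread between plots. In the fit over all seasons that spread also holds any change of the weedy minus control difference from season to season. In the fits within a season, the plots of a group differ in row spacing, so plot and spacing are mixed. Each season is a single year, so the p-values of season tests do not measure the spread between years. Members, classes and lists were chosen with earlier results of these data known. Named for weedy minus control were each class's most abundant gene and the 2 of smallest p; elsewhere, up to 4 rises and 4 falls (6 for the F test), or the 2 of smallest p per side where none passed. Genes named beyond this were chosen after their values were seen. Alternatives were other filters, 1 added before the log, plain eBayes, no season term, a block of plot pairs, and leaving out each library or season. None of the identifiers matched the reference gene table supplied, and no sequences are shown.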

Additional observations from a re-analysis of the deposited data

Results flagged for a closer look

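Within the 6 control or 6 weedy libraries, 1 library stood far from the other 5 by Dixon's test in 10 of the 82 groups checked (41 named members). Chance alone gives about 1 in 20, but the named members include genes chosen for their large 2008 differences. The count of flagged groups therefore cannot be set against that share. These groups mix 4 seasons, and 9 of the 10 libraries were those of 2008. Low in control plots of 2008 were ARR17 Glyma04g40100 (1.88; next 3.83), ARR17 Glyma06g14750 (1.57; next 2.78), WOL Glyma08g05370 (3.01; next 3.81) and EIN4 Glyma10g33240 (1.37; next 2.68). Low in the weedy plot of 2008 were ARR17 Glyma04g40100 (1.63; next 3.76) and AHP1 Glyma10g29890 (2.85; next 4.07). High in 2008 were CKX3 Glyma15g18560 (2.04 in the weedy plot, next 1.29), CKX7 Glyma17g34330 (3.03 in the weedy plot, next 2.28) and CGA1 Glyma17g34670 (3.06 in the control plot, next 1.59). The remaining case was ARR9 Glyma04g42680, whose control plot of 2009 (4.47) lay under the other 5 control plots (4.73 and above).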

How the results depend on the processing

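Named genes gave 1099 recomputed values for 63 results: 1088 kept their direction and side of the threshold, 0 lost a call, 2 gained one and 9 changed sign, all 9 in weedy minus control where nothing had passed. ARR9 Glyma11g21650 gained a call in 2010 (-0.98), in the fit that left 1 weedy plot of that season. It also gained one in 2009 (-0.87, adjusted p = 0.0142, limma). The sign changed without 2011 for WOL Glyma08g05370 (0.013), CKX3 Glyma17g06220 (0.156), CKX3 Glyma13g16430 (0.087), ARR1 Glyma17g03380 (0.011) and ARR12 Glyma04g06650 (0.027), without 2010 for AHK3 Glyma08g11060 (0.011), and without 2009 for ETR1 Glyma12g37050 (-0.039). ETR1 ranged from -0.039 to 0.127 with 1 library left out. With 1 library left out, members called ranged from 0 to 2 for weeds in 2010, from 0 to 1 for 2009 and from 21 to 35 for 2008. A replicate block of plot pairs left 0 members called in all 4 weed comparisons. Differences of drilled and row plots correlated across genes at only -0.05 (2010) and 0.05 (2011) between treatments. Plots of the same planting thus shared little, and counts by pair in these seasons rest on a matching that these values do not bear out. Other counts stayed within 1.5 times. Unknown depth limits what low values can show. The cause of these shifts was not tested.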
